A study of Homo sapiens with 29 samples.

Results

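JAG1 encodes Jagged1, a ligand of the Notch pathway, and was measured here in HepG2 cells with and without CCL, a herbal preparation. The gene was taken by its symbol in the array's probe table, which pairs it with 1 probe set (16917183, gene ID 182) among 16098 probe sets with a single gene symbol. These cover 14884 genes, of which 6529 were above log2 5 on at least 2 arrays and entered the tests. JAG1 was picked because it was higher with CCL in these same arrays. Its differences between the arms are therefore given as a description, with a standard error and no test.

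HepG2 is an established human line from a liver tumour, and CCL is the labels' short name for a treatment with the herb Cratoxylum cochinchinense Lour. Total RNA from 29 samples was hybridised to 29 Affymetrix arrays in 11 groups. Untreated cells were taken at 0 h (2 arrays), 6 h (3), 12 h (3), 18 h (2), 24 h (3) and 48 h (3), and CCL-treated cells at 6 h (3), 12 h (3), 18 h (3), 24 h (2) and 48 h (2). The labels number the arrays of a group as set 1, 2 or 3, and give neither the dose of CCL nor a vehicle for the untreated cells. They do not say whether the arrays of a group came from separate cultures, so every p-value measures only the spread between these arrays, which may be technical. No group holds more than 3 arrays, which limits the precision. The samples are 1 tumour line, and the labels name no other cell type in the cultures that could send or receive a Notch signal. Values are log2 expression as the authors deposited it, and a difference of 1 is a doubling. RNA was measured in bulk, so fewer cells with JAG1 RNA and less JAG1 RNA per cell cannot be told apart.

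Notch signalling runs between touching cells. A membrane-bound ligand of the Jagged or Delta-like family on 1 cell binds a Notch receptor on its neighbour, the receptor is cut by an ADAM protease and then by gamma-secretase, and the freed intracellular domain joins RBPJ and a Mastermind coactivator in the nucleus to switch on genes such as those of the HES and HEY families. In the developing liver, Jagged1 guides the formation of bile ducts, and loss of a JAG1 copy causes Alagille syndrome, in which bile ducts are sparse.

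In RefSeq's GRCh38.p14 annotation, JAG1 lies on the minus strand of chromosome 20, from 10637684 to 10673999, a span of 36316 bases. Its 250 bases upstream of the start site (chr20:10674000-10674249, minus strand) are printed because this is the stretch next to the start of the transcript that was measured. Capitals mark 2 GC boxes, the GGGCGG motif bound by SP family factors, and 2 overlapping copies, 1 on each strand, of GCGCATG, a core of the motif of the factor NRF1.

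JAG1 promoter: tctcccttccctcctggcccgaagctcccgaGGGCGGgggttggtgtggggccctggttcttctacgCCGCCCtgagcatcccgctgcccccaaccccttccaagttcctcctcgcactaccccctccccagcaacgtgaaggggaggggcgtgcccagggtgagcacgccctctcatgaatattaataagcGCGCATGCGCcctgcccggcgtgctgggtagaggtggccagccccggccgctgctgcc

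The GC content of the JAG1 window was 68.4%, against a median of 58% over 35116 RefSeq windows of the same length, and 75.6% of those were lower. A GC box on either strand was found in 42.6% of the windows. GCGCATG was found in 3.77%. In JAG1, the GC boxes lie 219 to 214 and 183 to 178 bases upstream of the start site, and the copies of GCGCATG 58 to 52 and 55 to 49 bases upstream. The AP-1 motif (TGANTCA, in 6.57% of windows) has no match in these JAG1 letters on either strand. The same holds for the CRE motif of ATF factors (TGACGT, in 7.1%), the TEAD motif (GGAATG, in 11.9%), the RBPJ motif (TGGGAA, in 20.8%) and the TATA box (TATAAA, in 10.7%). The motifs were chosen with the JAG1 sequence in view, and a match or its lack is a description of the letters alone.

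The libraries carried the RNA of liver cells. Of 10 hepatocyte markers, 8 had a named probe set and all 8 were tested, and their median on each array was between 10.57 and 11.08. In the mean over times 2 of these 8 were called, against 24.6% of all tested genes: APOA1, the main protein of high-density lipoprotein, fell by 0.39 (SE 0.14, limma adjusted p = 0.04) and TTR, transthyretin, by 0.43 (SE 0.13, adjusted p = 0.0197). All measured fibroblast markers (2 genes, none above 2.65) and endothelial markers (3 genes, none above 3.57) stayed below the log2 5 filter. Of 3 measured leukocyte markers, LYZ alone was tested, with a highest value of 10.95, and it was not called. The median over all probe sets ranged from 2.29 (untreated 18 h, set 1) to 3.39 (CCL 18 h, set 3), so the arrays were not on a common scale. Quantile-normalised values are therefore given beside the deposited ones where they differ.

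JAG1 was higher on each of the 13 CCL arrays than on any of the 16 untreated arrays. Its lowest, median and highest log2 values were 9.73, 10.37 and 10.79 with CCL, and 7.75, 8.69 and 9.40 without. A gap of 0.33 separated the lowest CCL array (48 h, set 2) from the highest untreated array (0 h, set 1), and this gap was 0.35 after quantile normalisation. Over all tested genes, 61 (0.934%) had every CCL array above every untreated array, and 68 (1.04%) after quantile normalisation. JAG1 already ranked high without CCL, between the 95.5th and 99th percentile of named genes on the untreated arrays, and between the 99.3rd and 99.9th on the CCL arrays. These percentiles rank probe sets of unlike sensitivity and say nothing of transcript numbers.

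In untreated cells, JAG1 stood at 9.40 and 9.22 at 0 h (sets 1 and 3). It was at 8.87, 8.93 and 8.77 at 6 h, and at 8.68, 8.70 and 8.42 at 12 h, in sets 1, 2 and 3. Up to 12 h the untreated arrays of a group therefore lay close together. As deposited, no JAG1 value of a later group up to 12 h reached the one before it. After quantile normalisation, the 12 h values (8.75, 8.74 and 8.53) overlapped those at 6 h (8.82, 8.87 and 8.72), so this order depended on the scale. At 18 h the deposited values were 7.75 and 8.54 in sets 1 and 3, at 24 h 7.96, 8.20 and 9.14, and at 48 h 8.65, 8.49 and 9.05. From 18 h on, set 3 held the highest untreated JAG1 value at each time, above its group mean by 0.40, 0.71 and 0.32 at 18, 24 and 48 h, whereas at 0, 6 and 12 h set 3 was the lowest array.

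With CCL, JAG1 was at 10.20, 10.46 and 10.46 at 6 h, at 10.54, 10.29 and 10.72 at 12 h, and at 10.42, 10.15 and 10.79 at 18 h, in sets 1, 2 and 3. At 24 h it was at 10.18 and 10.20, and at 48 h at 10.37 and 9.73, in sets 1 and 2. The CCL arrays spanned 1.06 over all times and the untreated arrays 1.65. JAG1 was thus already near its highest CCL level at the first time sampled.

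Ordered by mean, the JAG1 groups ran from CCL 12 h (10.52 ± 0.215, SD, n = 3) through CCL 18 h (10.45 ± 0.322, n = 3), CCL 6 h (10.37 ± 0.152, n = 3), CCL 24 h (10.19 ± 0.0167, n = 2) and CCL 48 h (10.05 ± 0.449, n = 2). The untreated groups followed, from 0 h (9.309 ± 0.13, n = 2) through 6 h (8.858 ± 0.0813, n = 3), 48 h (8.73 ± 0.286, n = 3), 12 h (8.601 ± 0.159, n = 3) and 24 h (8.432 ± 0.626, n = 3) to 18 h (8.149 ± 0.56, n = 2). Of the steps between neighbours in this order, 3 were larger than the larger SD of the pair. They were the steps from CCL 6 h to CCL 24 h (0.18), from CCL 48 h to untreated 0 h (0.741) and from untreated 0 h to 6 h (0.451). All other neighbouring JAG1 groups lay within their spread. The plot of JAG1 by array and time shows these values on both scales.

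**Figure D1:**
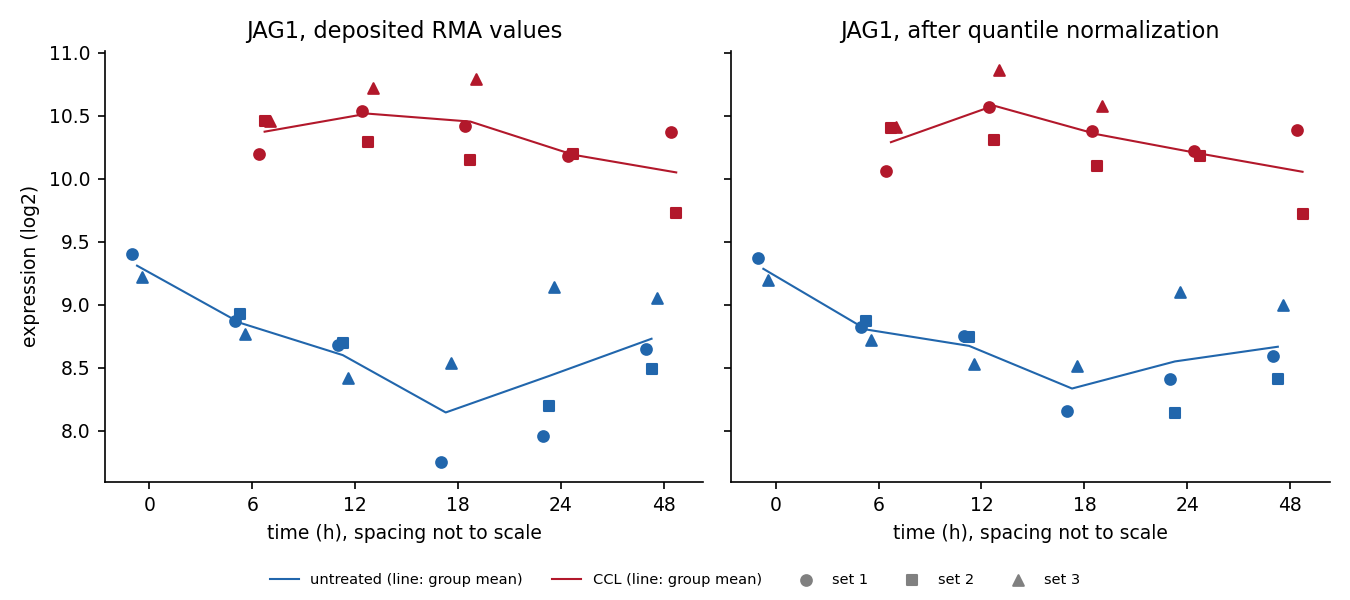
JAG1 log2 expression on each of the 29 arrays (y axis) by time in hours (x axis), as deposited on the left and after quantile normalisation on the right. Red marks CCL, blue marks untreated cells, symbols give the set and lines join group means; the lowest CCL point (9.73 as deposited) lies above the highest untreated point (9.40).

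At each of the 5 times JAG1 was more than 2-fold higher with CCL. The log2 difference from untreated cells of the same time was 1.51 ± 0.26 (SE) at 6 h, 1.92 ± 0.26 at 12 h, 2.30 ± 0.29 at 18 h, 1.76 ± 0.29 at 24 h and 1.32 ± 0.29 at 48 h, or 2.86-, 3.77-, 4.93-, 3.38- and 2.49-fold. The mean over the 5 times was 1.76 ± 0.13, which is 3.39-fold. Among the 6529 tested genes, the JAG1 difference ranked 16th, 17th, 23rd, 36th and 45th from the highest at 6, 12, 18, 24 and 48 h, and 18th in the mean. Over all genes, 0.306%, 1.24%, 12.5%, 3.02% and 6.56% were called at these times and 24.6% in the mean (limma, Benjamini-Hochberg adjusted p under 0.05, either direction), and 1.84% had CCL arrays above untreated arrays at all 5 times.

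The whole distribution of genes was shifted at some times, and the JAG1 difference stood well outside that shift. The median difference over all tested genes was -0.06, -0.06, 0.41, 0.04 and -0.26 at 6, 12, 18, 24 and 48 h. Measured from that median, JAG1 was higher by 1.57, 1.98, 1.89, 1.72 and 1.58, a narrower range than that of the differences themselves. After quantile normalisation it was higher by 1.49 ± 0.22, 1.91 ± 0.22, 2.02 ± 0.25, 1.65 ± 0.25 and 1.39 ± 0.25, and by 1.69 ± 0.11 in the mean.

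Since every CCL array lay above every untreated array, JAG1 was necessarily higher with CCL in all 12 pairs that share a time and a set number. The direction within pairs therefore adds no support, and only the sizes of the differences are described. The differences were 1.33, 1.53 and 1.68 at 6 h and 1.85, 1.59 and 2.30 at 12 h in sets 1, 2 and 3. They were 2.66 and 2.25 at 18 h in sets 1 and 3, 2.22 and 2.00 at 24 h and 1.71 and 1.24 at 48 h in sets 1 and 2. At 24 and 48 h the CCL groups have no set 3 array, while the untreated groups do, and it is the highest untreated array at both times. Without the untreated 24 h set 3 array, the 24 h JAG1 difference was 2.11 in place of 1.76. The 18 h difference was 1.91 without the untreated set 1 array, which has the lowest array median of all (2.29), and 2.70 without set 3.

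The JAG1 difference was largest at 18 h and smallest at 48 h, but the errors are wide against these steps. Relative to 6 h, it was larger by 0.40 ± 0.37 at 12 h, by 0.79 ± 0.39 at 18 h and by 0.24 ± 0.39 at 24 h, and differed by -0.20 ± 0.39 at 48 h. The median of all genes itself was larger at 18 h than at 6 h by 0.49, and after quantile normalisation the 18 h step for JAG1 was 0.53 ± 0.33. The plot of the difference by time shows the JAG1 values on both scales beside the median of all genes.

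**Figure D2:**
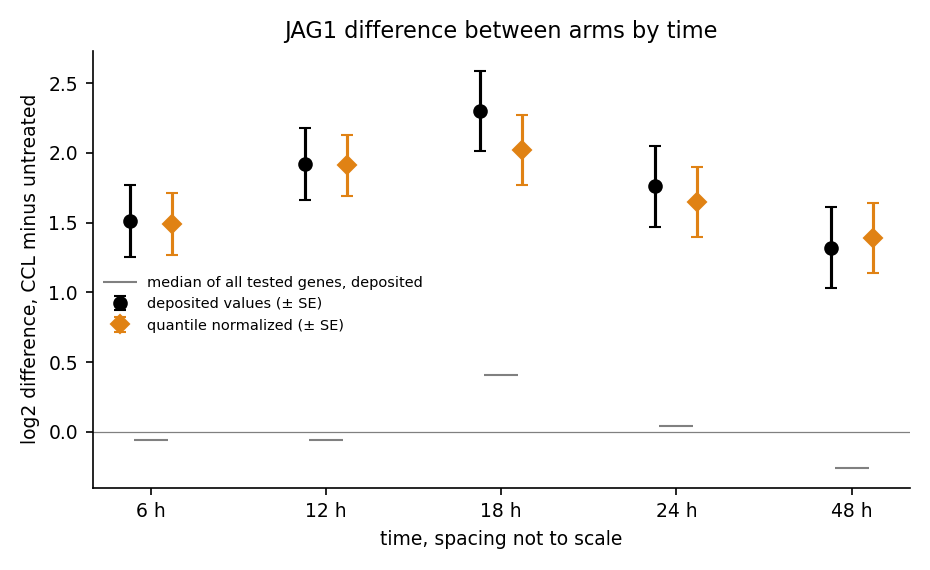
JAG1 log2 difference, CCL minus untreated (y axis), at each time (x axis), with standard errors. Black circles are deposited values, orange diamonds quantile-normalised values and grey bars the median of all tested genes; JAG1 lies between 1.32 and 2.30 on the deposited scale while the medians lie between -0.26 and 0.41.

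In untreated cells, JAG1 was lower than at 0 h at every later time. The same later arrays are those against which CCL was compared when the gene was chosen, so these differences too are a description with no test. The log2 difference from 0 h was -0.45 ± 0.29 (SE) at 6 h, -0.71 ± 0.29 at 12 h, -1.16 ± 0.32 at 18 h, -0.88 ± 0.29 at 24 h and -0.58 ± 0.29 at 48 h. After quantile normalisation the JAG1 differences were -0.48, -0.61, -0.94, -0.73 and -0.62. With each array centred on its own median they were -0.43, -0.14, -0.72, -0.78 and -0.56, so the size of the 12 and 18 h differences depended on the scale. All 14 arrays of the later untreated times were below both 0 h arrays as deposited. Leaving out each array in turn gave -1.56 (without the untreated 18 h set 3 array) to -0.76 at 18 h. An untreated 0 h group is the only start point, so a JAG1 difference between CCL cells and cells at 0 h mixes treatment with time in culture.

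On the deposited values, the share of tested Notch pathway genes called was below that of all tested genes in the mean over times, and above it at 18 h. Neither difference in shares was tested. Of 81 pathway genes listed without JAG1, 69 had a named probe set, 38 passed the filter, 31 were below it and 12 were not analysed here. In the mean over times, 5 of the 38 rose and 1 fell (15.8% called, against 24.6% of all tested genes), with a median difference of 0.11 against 0.01 for all genes. At 6, 12 and 48 h none was called by limma, although 2, 2 and 5 had an unadjusted p under 0.05. At 18 h 7 rose (18.4%, against 12.3% of all genes) with a median of 0.51 against 0.41, and at 24 h 1 fell (2.63%, against 0.475%). After quantile normalisation the counts were 0, 0, 1, 2 and 0 at the single times and 9 in the mean, of which 5 rose and 4 fell. Of all genes, 1.30%, 2.24%, 5.18%, 6.89% and 12.4% were then called at the single times and 35.4% in the mean. Since passing the filter can depend on the group where a gene is high, these 38 do not stand for the whole list. DTX4, the gene that fell, is such a case: it was above log2 5 on untreated arrays only.

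Among the other ligands, none of the 4 canonical ones reached the filter. On no array was JAG2 (3.25 to 4.84), DLL1 (2.52 to 4.16), DLL3 (2.66 to 3.88) or DLL4 (2.36 to 3.68) above log2 5, and DNER (1.80 to 2.65) was likewise below it. The atypical ligands DLK1 and DLK2, membrane proteins that lack the part with which Jagged and Delta proteins activate the receptor, were tested. DLK1 differed by 0.16 ± 0.12 in the mean (limma adjusted p = 0.362) and DLK2 by 0.26 ± 0.13 (adjusted p = 0.141). DLK2 rose at 18 h by 1.24 ± 0.29 (limma adjusted p = 0.00815), a call that was lost after quantile normalisation (0.78, adjusted p = 0.0712). JAG1 was thus the only canonical Notch ligand in this cell line whose probe set passed the filter.

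Of the receptors, NOTCH1 rose and NOTCH2 did not pass the test. NOTCH1, the best known of the 4 receptors, ranged from 4.44 to 5.55 (median 5.15) over the CCL arrays and from 3.92 to 5.21 (median 4.88) over the untreated arrays, so the arms overlapped, near the filter of log2 5. Its mean difference over times was 0.38 ± 0.10 (limma adjusted p = 0.00841), and 0.36 after quantile normalisation (adjusted p = 0.000791). At 18 h NOTCH1 was at 5.55, 5.15 and 5.38 with CCL and at 3.92 and 4.74 without, a difference of 1.03 ± 0.24 (limma adjusted p = 0.00733) that was 0.54 after quantile normalisation (adjusted p = 0.0889). The NOTCH1 differences at 6, 12, 24 and 48 h, from 0.11 to 0.33, were not called. NOTCH2, the receptor through which JAG1 acts in bile duct formation, ranged from 3.81 to 5.98 with CCL and from 4.89 to 6.29 without. Its mean difference was -0.31 ± 0.15 (limma adjusted p = 0.141), and after quantile normalisation -0.33, which was called (adjusted p = 0.0488). NOTCH3 (2.96 to 5.11, above log2 5 on 1 array) and NOTCH4 (2.57 to 4.50) were below the filter.

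Of the 10 tested genes for ligand endocytosis and receptor cutting, none was called by limma in the mean over times (0 at an unadjusted p under 0.05). ADAM10, the protease that makes the first ligand-dependent cut, differed by 0.02 ± 0.11 (limma adjusted p = 0.904) and its relative ADAM17 by 0.12 ± 0.11 (adjusted p = 0.504). At 18 h EPN2, an epsin of the endocytic machinery, rose by 1.08 ± 0.32 (limma adjusted p = 0.0308) and NCSTN, a gamma-secretase subunit, by 1.25 ± 0.39 (adjusted p = 0.0357). The NCSTN call rested on 1 array. It was at 8.72, 8.80 and 9.14 with CCL at 18 h, and at 6.42 and 8.85 in untreated sets 1 and 3, and without untreated set 1 the difference was 0.03 (adjusted p = 0.998). Neither gene was called at 18 h after quantile normalisation (EPN2 0.60, adjusted p = 0.13, and NCSTN 0.85, adjusted p = 0.127).

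Of 3 tested genes for receptor glycosylation, 1 rose in the mean (33.3%, against 24.6% of all genes). RFNG, radical fringe, a glycosyltransferase that modifies the Notch extracellular domain and so tunes which ligands it answers to, ranged from 6.24 to 7.16 with CCL and from 5.43 to 6.83 without. Its mean difference was 0.52 ± 0.14 (limma adjusted p = 0.00774) and 0.49 after quantile normalisation (adjusted p = 0.00194), and no single time was called. The other fringe genes, LFNG (2.57 to 4.16) and MFNG (2.47 to 3.70), were below the filter.

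None of the 9 tested nuclear factors was called by limma in the mean (1 at an unadjusted p under 0.05) or at 6, 12, 18, 24 or 48 h (1, 0, 2, 0 and 2 at an unadjusted p under 0.05). RBPJ, the DNA-binding partner of the Notch intracellular domain, differed by 0.11 ± 0.22 (limma adjusted p = 0.763), and MAML2, a Mastermind coactivator, by 0.35 ± 0.16 (adjusted p = 0.114). RBPJ had a median of 4.37 and was above log2 5 on only 5 of the 29 arrays. It ranged from 3.82 to 6.72 with CCL and from 3.96 to 5.22 without. At values this low, the missing call does not show that RBPJ was unchanged.

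Of 6 tested inhibitors and turnover genes, 2 rose and 1 fell in the mean (50%, against 24.6% of all genes). After quantile normalisation 2 rose and 2 fell (66.7%, against 35.4%). ITCH, a ubiquitin ligase that marks Notch for degradation, ranged from 9.51 to 9.95 with CCL and from 8.80 to 9.54 without, and rose by 0.43 ± 0.08 (limma adjusted p = 0.000478). ITCH also rose at 18 h by 0.75 ± 0.20 (limma adjusted p = 0.016), the only one of the 7 calls at 18 h that was also made after quantile normalisation (0.46, adjusted p = 0.0389). NLE1, Notchless homolog 1, known also for ribosome assembly, rose by 0.35 ± 0.11 (limma adjusted p = 0.0177), and by 0.85 ± 0.25 at 18 h (adjusted p = 0.0279). NLE1 was no longer called in the mean without the CCL 48 h set 1 array (0.28, limma adjusted p = 0.0658) or without any set 3 array (0.38, adjusted p = 0.0596). DTX4, a Deltex ubiquitin ligase, ranged from 3.31 to 4.92 with CCL and from 4.10 to 5.72 without, and fell by 0.65 on the log2 scale (SE 0.14, limma adjusted p = 0.00155), a call lost without any set 3 array (-0.48, adjusted p = 0.066). No CCL array of DTX4 exceeded log2 5, so it entered the tests only through the arm where it was higher. At 24 h DTX4 was at 3.31 and 4.61 with CCL and at 4.83, 5.72 and 5.43 without, a difference of -1.36 ± 0.33 (limma adjusted p = 0.0216). That DTX4 difference was -0.72 without the CCL 24 h set 1 array (adjusted p = 0.82) and -1.17 without the untreated 24 h set 2 array (adjusted p = 0.11).

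Of 17 listed Notch targets, 6 were tested, 9 were below the filter and 2, HES1 among them, were not analysed here. In the mean 1 of the 6 was called (16.7%, against 24.6% of all genes), and 2 after quantile normalisation (33.3%, against 35.4%). HEY1 (2.08 to 4.37), HEYL (2.78 to 3.91) and NRARP (2.29 to 4.04), direct targets that are often read as a sign of Notch activity, were at or below 4.37 on all 29 arrays. The medians with and without CCL were 3.61 and 3.04 for HEY1, 3.36 and 3.2 for HEYL, and 3.19 and 3.19 for NRARP. At values this low, the arrays do not show whether these genes changed. HES4 differed by 0.18 ± 0.14 (limma adjusted p = 0.38), HES6 by -0.24 ± 0.16 (adjusted p = 0.291), CCND1, cyclin D1, by -0.09 ± 0.10 (adjusted p = 0.546) and SOX9, a biliary transcription factor, by -0.33 ± 0.13 (adjusted p = 0.0689). SOX9 passed the threshold after quantile normalisation (-0.40, adjusted p = 0.0134). MYC was the 1 target called in the mean: it ranged from 7.87 to 8.79 with CCL and from 7.36 to 8.37 without, and rose by 0.48 ± 0.12 (limma adjusted p = 0.00508). MYC answers to many growth signals besides Notch. PTCRA, the pre-T-cell receptor alpha chain, was called at 18 h (0.88 ± 0.29, limma adjusted p = 0.0429) and not after quantile normalisation (0.37, adjusted p = 0.348).

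The 7 calls at 18 h (DLK2, NOTCH1, EPN2, NCSTN, ITCH, NLE1 and PTCRA) rested on the same few arrays. Without the untreated 18 h set 1 array, whose median over all probe sets was 2.29, no pathway gene was called, and without untreated set 3 the count was 19. Without the CCL 18 h set 3 array, whose median was 3.39, the count was 1. No pathway gene differed in its CCL effect between times by the limma F-test over the 5 effects (0 of 38, of which 2 had an unadjusted p under 0.05, against 0.0153% of all genes called), so these data do not show that a pathway gene was changed at 18 h more than at other times. The plot of the Notch pathway shows the mean difference of each tested gene.

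**Figure D3:**
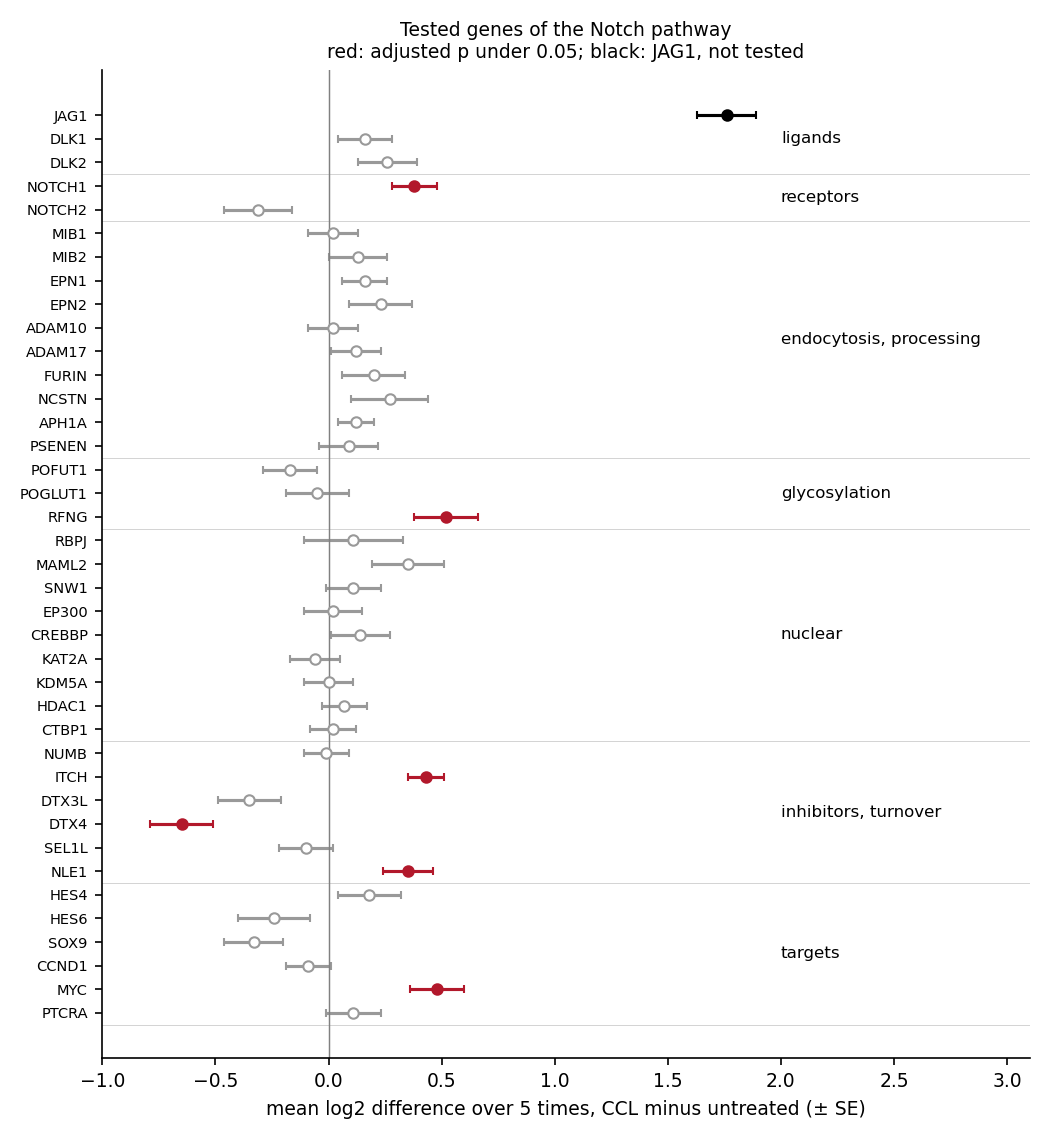
Mean log2 difference over 5 times, CCL minus untreated (x axis, with standard error), for JAG1 and the 38 tested Notch pathway genes (rows, grouped by role). Red points passed the limma threshold (adjusted p under 0.05), grey open points did not and JAG1 (black) was not tested; JAG1 is at 1.76, and the pathway genes lie between DTX4 at -0.65 and RFNG at 0.52.

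Of 19 factors reported to act on JAG1 transcription (factors of the AP-1, YAP/TEAD, SMAD, NF-kB and Wnt pathways and 2 liver factors), 16 had a named probe set and 14 were tested. In the mean over times 5 rose and 1 fell (42.9% called, against 24.6% of all genes), with a median of 0.23 against 0.01. The list was drawn up with earlier results of these same arrays known. Its shares and p-values are therefore a description, and an excess over all genes was not tested. The AP-1 subunit FOSL1 ranged from 6.31 to 8.16 with CCL and from 5.11 to 6.59 without, and rose by 1.67 ± 0.18 (limma adjusted p = 1.78e-07). Its partner JUN ranged from 7.84 to 9.33 with CCL and from 6.43 to 8.10 without, and rose by 1.01 ± 0.17 (adjusted p = 6.54e-05). Both overlapped between the arms. The third AP-1 subunit on the list, FOS, was at 3.87 to 5.54 with CCL and at 3.84 to 5.10 without. It differed by 0.25 ± 0.12 in the mean (limma adjusted p = 0.126). The FOS difference was 1.02 ± 0.25 at 6 h (limma adjusted p = 0.0693, and 0.0163 after quantile normalisation) and -0.30 ± 0.28 at 24 h (adjusted p = 0.712). FOS was above log2 5 on 5 arrays, among them all 3 CCL 6 h arrays (5.05 to 5.54). It thus entered the tests mainly through the group where it was highest, and its 6 h p-values are not support apart from that filter.

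Among the Hippo pathway factors, TEAD4, a DNA-binding partner of YAP, rose by 0.52 ± 0.11 (limma adjusted p = 0.000714) and the coactivator YAP1 by 0.34 ± 0.09 (adjusted p = 0.0072). The YAP1 difference was 0.27 (adjusted p = 0.08) when all its probe sets were averaged. TEAD2 rose by 0.38 ± 0.13 (limma adjusted p = 0.0311), a call that was lost on leaving out any 1 of 9 arrays: untreated 6 h sets 2 and 3, 18 h set 1 and 48 h set 3, and CCL 6 h set 1, 12 h sets 1 and 2, 24 h set 1 and 48 h set 2 (highest adjusted p = 0.0644). The liver factor ONECUT1, HNF6, ranged from 2.88 to 6.01 with CCL and from 5.13 to 6.29 without, and fell by 1.12 on the log2 scale (SE 0.19, limma adjusted p = 7.33e-05).

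At the single times, 0, 1, 3, 2 and 1 of the 14 factors were called at 6, 12, 18, 24 and 48 h. These are 0%, 7.14%, 21.4%, 14.3% and 7.14%, against 0.306%, 1.24%, 12.5%, 3.02% and 6.56% of all genes. After quantile normalisation 1, 1, 2, 4 and 3 were called, the 1 at 6 h being FOS. These are 7.14%, 7.14%, 14.3%, 28.6% and 21.4%, against 1.30%, 2.24%, 5.18%, 6.89% and 12.4% of all genes. The 6 h share is FOS alone, which entered the tests mainly through the CCL 6 h arrays, so it is not support apart from that filter. In the mean 7 were called after quantile normalisation (50%, against 35.4%), of which 6 rose and 1 fell. At 6 h, when 0.306% of all genes were called, no factor was called by limma (3 at an unadjusted p under 0.05). FOSL1 differed by 1.41 ± 0.38 (limma adjusted p = 0.111) and JUN by 0.95 ± 0.35 (adjusted p = 0.364), beside 1.51 ± 0.26 for JAG1. Whether JAG1 or any factor changed first was not tested. FOSL1 rose by 1.81 ± 0.38 at 12 h (limma adjusted p = 0.0109), by 2.16 ± 0.43 at 18 h (adjusted p = 0.00208) and by 1.68 ± 0.43 at 24 h (adjusted p = 0.0269), and each of these calls was lost without at least 1 array of its own time (highest adjusted p = 0.0853, 0.154 and 0.146). The FOSL1 differences with each array left out were 1.67 to 1.98 at 12 h, 1.84 to 2.48 at 18 h and 1.32 to 2.15 at 24 h. FOSL1, like JAG1, thus differed upwards at each sampled time, and its 48 h difference of 1.30 ± 0.43 was not called (adjusted p = 0.0635, and 0.019 after quantile normalisation). TEAD4 (0.95 ± 0.25, limma adjusted p = 0.0144) and JUN (1.17 ± 0.39, adjusted p = 0.0468) were called at 18 h, and neither was after quantile normalisation (adjusted p = 0.103 and 0.208). ONECUT1 fell by 1.96 at 24 h (SE 0.43, limma adjusted p = 0.0111) and by 1.5 at 48 h (SE 0.43, adjusted p = 0.038). Without the CCL set 1 array of the same time, the ONECUT1 differences were -0.80 (adjusted p = 0.808) and -0.72 (adjusted p = 1).

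Bile duct and progenitor markers, the cell fate with which liver JAG1 is best known to be tied, were mixed. Of 10 markers, 8 had a named probe set and 7 were tested, of which 2 rose in the mean (28.6%, against 24.6% of all genes). KRT19, keratin 19, rose by 0.52 ± 0.13 (limma adjusted p = 0.00507) and the transcription factor SOX4 by 0.70 ± 0.14 (adjusted p = 0.000414). EPCAM (0.11 ± 0.12, limma adjusted p = 0.552), SPP1 (0.25 ± 0.27, adjusted p = 0.54), PROM1 (-0.05 ± 0.17, adjusted p = 0.874), CD24 (0.24 ± 0.17, adjusted p = 0.316) and SOX9, given above, were not called, and KRT7 (1.92 to 3.16) was below the filter on every array.

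Over the 29 arrays, the 10 genes whose quantile-normalised values were most like JAG1 by Pearson correlation were IGFBP1 (r = 0.951), GDF15 (0.95), SAT1 (0.947), CSGALNACT2 (0.934), IL11 (0.927), LIF (0.923), MAFG (0.922), IER3 (0.919), SH3RF1 (0.918) and AXL (0.907). They encode an IGF binding protein, a stress-induced cytokine, a polyamine acetyltransferase, a chondroitin sulfate synthesis enzyme, a pair of IL-6 family cytokines, a small MAF transcription factor, an immediate early protein, a scaffold with SH3 domains and a receptor tyrosine kinase. The median r with JAG1 over 6528 genes was -0.016. All points share the treatment arm, the time and the set, so these are descriptions and carry no p. Picked for likeness to a gene that separates the arms, all 10 were bound to be higher with CCL, so only the sizes are described. The mean differences were 3.25 ± 0.17 for IL11, 3.05 ± 0.23 for IGFBP1 and 2.27 ± 0.18 for LIF at the upper end, and 0.84 ± 0.12 for MAFG at the lower.

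The likeness to JAG1 lay mostly between the arms. Within the 13 CCL arrays the r of these 10 genes with JAG1 was between 0.194 and 0.689, within the 16 untreated arrays between 0.261 and 0.769, and for deviations from the 11 group means between 0.504 and 0.75. None of the 10 stayed among the 10 most like JAG1 in either arm alone, and 2 did by deviations from group means, where TMC7 (0.89) and KLF6 (0.852) came first. By Spearman correlation 5 of the 10 stayed, and on the deposited values 9. The 5 genes with the lowest r were IDI1 (-0.884), an enzyme of isoprenoid and cholesterol synthesis, QNG1 (-0.859), GLE1 (-0.844), AGGF1 (-0.839) and SMLR1 (-0.838). Among Notch pathway genes the highest r with JAG1 was that of ITCH (0.874, rank 38) and the lowest that of DTX4 (-0.69). The plots of JAG1 against single genes show 1 gene from each kind.

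**Figure D4:**
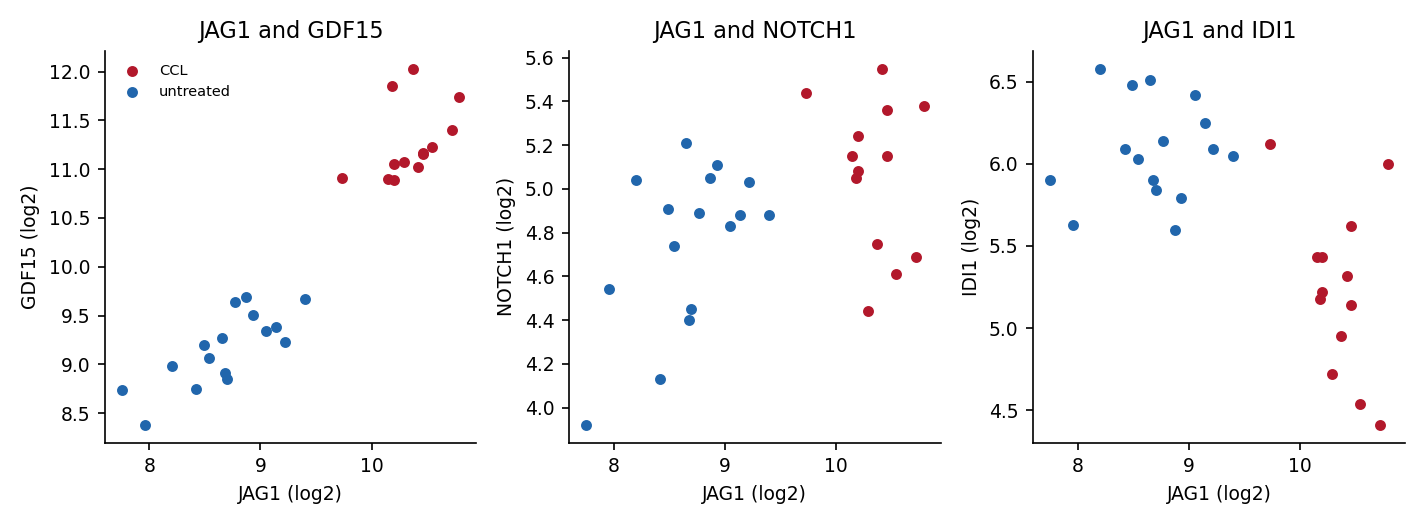
Deposited log2 values of GDF15 (left), NOTCH1 (middle) and IDI1 (right) on the y axis against JAG1 on the x axis, 1 point for each of the 29 arrays, red for CCL and blue for untreated. With GDF15 the arms form separate clouds, NOTCH1 overlaps between the arms (4.44 to 5.55 with CCL, 3.92 to 5.21 without), and IDI1 is mostly lower on the CCL arrays.

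Of the 10 genes most like JAG1, 7 had a window in the RefSeq table. A GC box, which the JAG1 window holds, was found in 6 of these 7, against 42.6% of all windows, and GCGCATG in 1 (MAFG). The AP-1 motif was found in IL11 alone, the TEAD motif and the TATA box in GDF15 alone, the RBPJ motif in SH3RF1 alone, and the CRE motif in none. The motifs were chosen with the JAG1 sequence in view, and the genes for their likeness to JAG1 in these arrays. These counts therefore describe the letters alone, and a shared promoter feature was not tested.

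On chromosome 20, no tested neighbour of JAG1 was called as higher with CCL. SLX4IP, whose annotated end lies 9.7 kb from JAG1, differed by -0.37 ± 0.15 in the mean over times (limma adjusted p = 0.0624, and 0.00957 after quantile normalisation). Beyond it, MKKS, a chaperonin-like protein, fell by 0.37 (SE 0.11, limma adjusted p = 0.0165) and ANKEF1 by 0.44 (SE 0.13, adjusted p = 0.016). After quantile normalisation MKKS differed by -0.39 (adjusted p = 0.000483) and ANKEF1 by -0.46 (adjusted p = 0.004). On the deposited values both calls were lost without the CCL 48 h set 1 array (MKKS -0.28, adjusted p = 0.0671, and ANKEF1 -0.26, adjusted p = 0.0519) and without any set 3 array (MKKS -0.32, adjusted p = 0.143, and ANKEF1 -0.44, adjusted p = 0.117). On the upstream side the tested neighbours are far off, BTBD3 at 1216.8 kb and ISM1 at 2547.3 kb. BTBD3 differed by 0.35 ± 0.14 (limma adjusted p = 0.0726) and ISM1 by -0.15 ± 0.13 (adjusted p = 0.45). The non-coding neighbours SNAP25-AS1, LOC339593 and ISM1-AS1 were below the filter. Of the 5 tested neighbours, BTBD3 alone differed upwards, without a call, while JAG1 was higher by 1.76.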

How the data were processed

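Total RNA of untreated and CCL-treated HepG2 cells was measured on 29 Affymetrix arrays. The authors deposited log2 expression values. The submitters' processing notes name RMA and Affymetrix Expression Console 1.1. Groups and set numbers were taken from the sample titles. The array medians differed, so quantile normalisation over all 53617 probe sets was the chief alternative. For genes with several probe sets (779), the brightest stood for the gene. A gene had to exceed log2 5 on 2 or more arrays. Tests used limma 3.58.1 in R 4.3.3 (lmFit, eBayes, 1 mean per group over all arrays, two-sided), with Benjamini-Hochberg adjustment over all 6529 genes and a threshold of 0.05. The procedure was tested on simulated data with independent noise for each gene and array. That simulation held no shifts of whole arrays and no shared set effects, so it does not vouch for calls that rest on such shifts. A planned test of untreated JAG1 against 0 h is not given, because its later arrays also entered the choice of the gene.

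JAG1 and the gene lists were chosen with earlier results of these data known. Genes were named by rule: canonical ligands, receptors and targets whatever they showed, other Notch genes called in a CCL comparison, reported JAG1 regulators called in the mean, the 10 highest and 5 lowest correlations with JAG1, and 4 neighbours with a probe set on each side. Biliary markers, FOS, hepatocyte markers and other pathway genes given beside these were named in addition, after their values were seen. Sequences and coordinates are RefSeq's (GRCh38.p14), to which all 16098 symbols matched. The main fit did not treat the sets as pairs, although 9 of 12 same-set pairs had residual correlations above 0.1 (-0.0657 to 0.444). Each array was left out in turn, and other filters, scales, probe set rules and blocks were tried.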

Additional observations from a re-analysis of the deposited data

How the results depend on the processing

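JAG1 was higher with CCL at every time under every alternative run, and its differences at 6, 12 and 48 h and in the mean moved by less than the pooled SD of JAG1 within groups (0.324). With each array left out the 48 h difference was 1.00 to 1.64. The 18 h difference was 1.72 with each array centred on its median, and 1.91 to 2.70 with each array left out in turn. The 24 h difference was 1.52 to 2.11 with each array left out, and 2.11 without any set 3 array, a setting chosen after seeing the data. Without set 3, untreated JAG1 at 18 h differed from 0 h by -1.65, and by -1.56 to -0.76 with each array left out.

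The count of Notch pathway genes called at 18 h was 1 after quantile normalisation, 0 with centring, 0 with only the compared arrays, 3 with a filter of log2 6, 11 without set 3, and 0 to 19 with each array left out. The 24 h count was 2 after quantile normalisation, 0 with only the compared arrays, 0 with the log2 6 filter, and 0 to 1 with each array left out. The 48 h count was 0 to 9 (9 without CCL 48 h set 2), and the count in the mean 5 to 10 (10 without untreated 18 h set 3). The count whose effect differed between times was 2 without set 3 and 0 to 6 with each array left out (6 without untreated 18 h set 3). Of the 10 genes most like JAG1, 5 remained by Spearman, 0 within CCL arrays, 0 within untreated arrays and 2 by residuals.

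With the set number as a replicate block, 2 pathway genes were called at 24 h and 2 at 48 h, and the JAG1 differences were 1.51, 1.92, 2.37, 1.86 and 1.42, with a mean of 1.82. The JAG1 standard errors were smaller with the block, 0.23 at 6 h in place of 0.26 and 0.11 in the mean in place of 0.13. The labels do not say what a set is, so which fit suits the design better was not settled. Of 32 called values of single genes, 12 were called with every array left out and 12 in every other setting. Groups of 2 or 3 arrays limit what smaller differences can be seen.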
